A study of Homo sapiens with 18 samples.

Results

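The mRNAs of 5 RNA-binding proteins that have been linked to the reading of N6-methyladenosine (m6A) were followed: IGF2BP1, IGF2BP2, IGF2BP3, HNRNPA2B1 and HNRNPC. They were matched by gene symbol, and all 5 were among the 8996 genes of the deposited table. The table gives the RNA half-life and the synthesis rate of each gene in HEK293T, a human embryonic kidney cell line labelled WT, after treatment with STM2457 or with DMSO. STM2457 inhibits METTL3, the enzyme that deposits most m6A on mRNA, and DMSO is its solvent. The values come from SLAM-seq, in which cells take up the nucleoside s4U and the RNA made during labelling is then recognised by its T-to-C changes.

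Cells received STM2457 (9 samples) or DMSO (9 samples) for 3 h. The label was then given at 100 µM for 90 or 180 min, or not at all, with 3 samples for each of the 6 combinations. Only 1 fitted value per gene and treatment was deposited, so no replicate error, depth per sample or p-value can be given for any value below. A gene is called longer-lived or shorter-lived where the STM2457 value differed from the DMSO value by over 1.5-fold, a rule of size and not a test. The table names no time unit; hours are inferred from its upper limit of 69.3, which equals ln 2 over a decay rate of 0.01 per hour.

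Readers of m6A are proteins that bind methylated mRNA and set its fate. IGF2BP proteins are cytoplasmic, carry RNA recognition motifs and KH domains, and are known for protecting bound mRNAs, MYC among them, from decay. The HNRNP proteins are abundant nuclear proteins that coat nascent transcripts; m6A is thought to act on HNRNPC by opening RNA structure around its U-rich binding sites, and HNRNPA2B1 has been tied to the processing of microRNA precursors. STM2457 blocks new deposition of the mark that these proteins are said to read, while the data here concern the mRNAs that encode them.

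The coding sequences themselves were searched for DRACH, the 5-letter sequence in which m6A occurs: any base but C, then A or G, then A and C, then any base but G. The search used the strand of the mRNA, allowed overlaps, and is a description of sequence, not a measurement of m6A. The openings of the IGF2BP coding sequences are shown because they hold 3 of 4, 2 of 5 and 4 of 5 of the motifs at least 100 nt from a coding exon junction in IGF2BP1, IGF2BP2 and IGF2BP3. Capitals mark DRACH motifs within the 60 bases, read 5′ to 3′ from GENCODE release 29 transcripts.
IGF2BP1: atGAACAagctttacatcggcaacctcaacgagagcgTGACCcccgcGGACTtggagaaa
IGF2BP2: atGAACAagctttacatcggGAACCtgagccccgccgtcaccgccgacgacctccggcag
IGF2BP3: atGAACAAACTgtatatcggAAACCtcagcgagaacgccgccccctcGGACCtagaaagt

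These stretches lie at chr17:48997746-48997805 on the plus strand for IGF2BP1, and at chr3:185824898-185824957 and chr7:23470051-23470110 on the minus strand for IGF2BP2 and IGF2BP3 (GRCh38), each inside the first coding exon. The IGF2BP2 stretch begins at coding base 4, because that gene opens with an additional ATG. IGF2BP3 matched IGF2BP1 at 45 of the 60 bases and IGF2BP2 at 37, while IGF2BP2 matched IGF2BP1 at 42. The first motif was present in all 3 genes. A motif in IGF2BP2 (GAACC) and IGF2BP3 (AAACC) has no counterpart in IGF2BP1, where the substitutions G21C and A21C, counted from the first base shown and written towards IGF2BP1, break it. Of 8610 coding sequences of the table's genes with at least 60 bases, 56.9% held a DRACH motif in their first 60.

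Of the HNRNP genes, HNRNPA2B1 had 0 motifs at least 100 nt from a coding exon junction. HNRNPC had 2, at coding bases 25 and 44, so these also lay at the start of the coding sequence. The stretches below are the 41 coding bases around the motif that lies farthest from any junction inside each coding sequence, with that motif in capitals.
HNRNPA2B1: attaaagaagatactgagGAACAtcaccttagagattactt
HNRNPC: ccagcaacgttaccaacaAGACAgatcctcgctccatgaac

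The HNRNPA2B1 stretch lies at chr7:26196923-26196963 and the HNRNPC stretch at chr14:21234149-21234189, both on the minus strand and both in exon 5 of the transcript used. The motif of HNRNPA2B1 lay 75 nt from the nearest junction. The HNRNPC motif lay 217 nt from the nearest junction inside the coding sequence, but a junction just ahead of the start codon is closer to it.

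**Figure D1:**
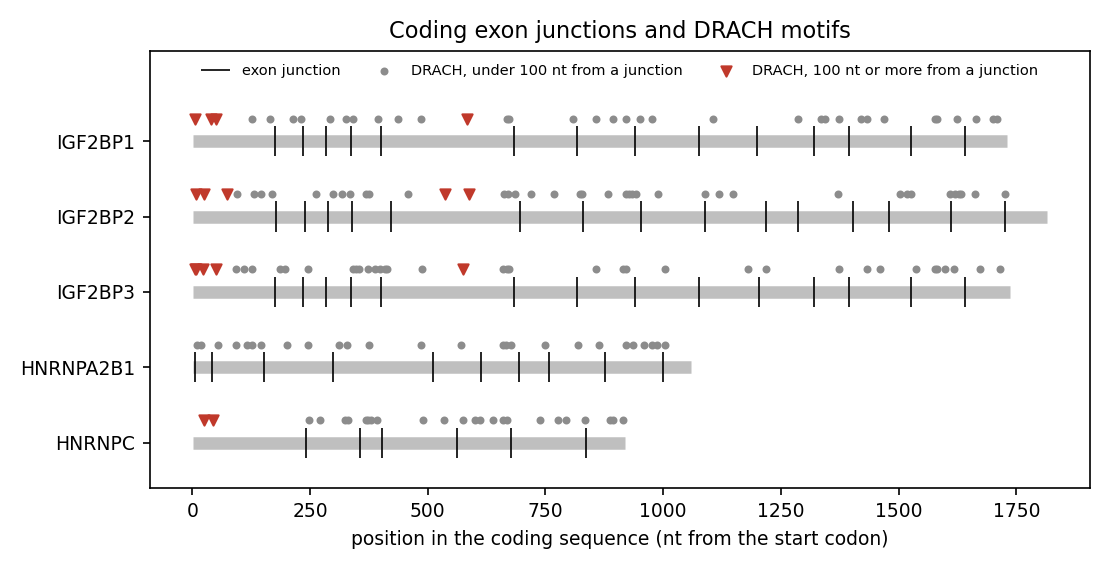
Coding sequences of the 5 genes drawn to scale, in nt from the start codon, with exon junctions as black lines, DRACH motifs under 100 nt from a junction as grey points and those at 100 nt or more as red triangles. The far motifs sit at the start of the coding sequence in the IGF2BP genes and HNRNPC, and in 1 inner exon of the IGF2BP genes. HNRNPA2B1 has 0.

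Coding motifs at least 100 nt from a coding junction numbered 4 in IGF2BP1, 5 in IGF2BP2, 5 in IGF2BP3, 2 in HNRNPC and 0 in HNRNPA2B1. The median over 8611 genes with a coding transcript was 3, with quartiles of 1 and 10, and 76.8% of these genes held at least 1. All 5 genes thus lay below the upper quartile. With no limit on distance, they held between 25 (HNRNPC) and 42 (IGF2BP2) motifs, against a median of 27. When junctions outside the coding sequence were counted too, HNRNPC had 0 far motifs, and the other 4 counts did not move. The untranslated 3′ parts of the transcripts were not searched. In the transcripts used, they ran from 120 nt in HNRNPC (percentile 8.9) to 6209 nt in IGF2BP1 (percentile 96.2). Transcripts were chosen by coding length, for HNRNPC 1 of 27 coding transcripts, so others may have other 3′ lengths.

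The IGF2BP genes are related in sequence throughout. Aligned over their whole length, IGF2BP1 and IGF2BP2 were identical at 69.8% of 1712 aligned coding bases, IGF2BP1 and IGF2BP3 at 70.2% of 1715, and IGF2BP2 and IGF2BP3 at 70.1% of 1718. IGF2BP3 and IGF2BP1 each have 14 coding junctions, of which 13 fall at the same coding position. IGF2BP2 has 15, of which 4 fall at those of IGF2BP3 once its additional codon is allowed for. Positions were compared by number and not through the alignment, so junctions displaced by other differences in length are not counted. Those at 683, 818, 941 and 1077 in IGF2BP3, for example, have the same spacing as those at 695, 830, 953 and 1089 in IGF2BP2. The 2 HNRNP genes belong to different subfamilies, and 57.0% of their 894 aligned coding bases were identical. Coding lengths were 1731 nt for IGF2BP1, 1815 nt for IGF2BP2, 1737 nt for IGF2BP3, 1059 nt for HNRNPA2B1 and 918 nt for HNRNPC, against a median of 1383 nt over all genes.

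The comparison of STM2457 with DMSO asked what the block of METTL3 did to the turnover of the readers' own mRNAs. All 3 IGF2BP mRNAs had somewhat shorter half-lives in STM2457, each within 1.5-fold, and both HNRNP mRNAs had longer ones and stood at the upper limit of the table. Of all 8996 genes, 980 stood at that limit in STM2457 and 229 in DMSO. HNRNPC alone was called, as longer-lived, so 1 of 5 was longer-lived and 0 were shorter-lived. In the whole table of 8996 genes, 28.5% passed the rule upwards and 24.9% downwards, so a share of 1 in 5 is near the background. The median log2 ratio of the 5 genes was -0.16, against -0.01 over all genes, with quartiles of -0.58 and 0.73.

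IGF2BP1, also known for carrying ACTB mRNA to its site of translation, had a half-life of 5.61 h in STM2457 and 7.70 h in DMSO. The log2 ratio was -0.46, or 1.37-fold shorter, at percentile 30.6 of all genes. The gene (ENSG00000159217.10) lies on chromosome 17, from 48997412 to 49055650 on the plus strand. No annotated gene that overlaps it is in the table.

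IGF2BP2, the member of the family best known in metabolism and adult tissue, had 3.90 h in STM2457 and 4.36 h in DMSO. Its log2 ratio of -0.16, at percentile 43.8, was the nearest to 0 of the 5. The gene (ENSG00000073792.15) lies on chromosome 3, from 185643739 to 185825056 on the minus strand, with an antisense RNA inside it that is not in the table.

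IGF2BP3, an oncofetal protein found again in many tumours, had 4.07 h in STM2457 and 5.90 h in DMSO. With a log2 ratio of -0.54, at percentile 27.0, it was 1.45-fold shorter-lived, just inside the 1.5-fold rule. The gene (ENSG00000136231.14) lies on chromosome 7, from 23310209 to 23470467 on the minus strand. Its 3′ end, the part that libraries of this kind read, is overlapped on the other strand by MALSU1. The sources used here do not say whether the counting used strand. MALSU1 had 4.84 h in STM2457 and 6.41 h in DMSO, and its part in the IGF2BP3 value was not tested.

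HNRNPA2B1 had 69.3 h in STM2457, the upper limit, and 49.6 h in DMSO. Its log2 ratio of 0.48, or 1.40-fold, is set by that limit and was within the rule. With half-lives held to 24 h it was 0, as it must be where both values lie above 24 h. Centred on genes with both half-lives between 0.5 and 24 h, it was 0.64, past the rule. The gene (ENSG00000122566.21) lies on chromosome 7, from 26173057 to 26201529 on the minus strand. On the other strand, NFE2L3 overlaps its 3′ end and is not in the table, and CBX3 overlaps it elsewhere and is. In DMSO the half-life stood at percentile 96.6 of all genes, the longest of the 5.

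HNRNPC also reached 69.3 h in STM2457, against 20.9 h in DMSO. The log2 ratio was 1.73, or 3.32-fold longer, at percentile 89.0, and its size is likewise set by the upper limit. With half-lives held to 24 h in both treatments it was 0.20 and not called. A DMSO value of 20.9 h leaves no room for a 1.5-fold rise below 24 h, so that cap cannot decide the call. The gene (ENSG00000092199.17) lies on chromosome 14, from 21209136 to 21269494 on the minus strand, and no annotated gene overlaps it. Its value is uncertain for another reason: 4 other genes, HNRNPCL1 and the pseudogenes HNRNPCP2, HNRNPCP3 and HNRNPCP6, matched at 95% identity or more, over at least 100 bases, the last 500 bases of at least 1 of its 27 coding transcripts. None of the 4 is in the table, and the sources used here do not say how reads with several matches were counted. The other 4 readers had 0 such copies.

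**Figure D2:**
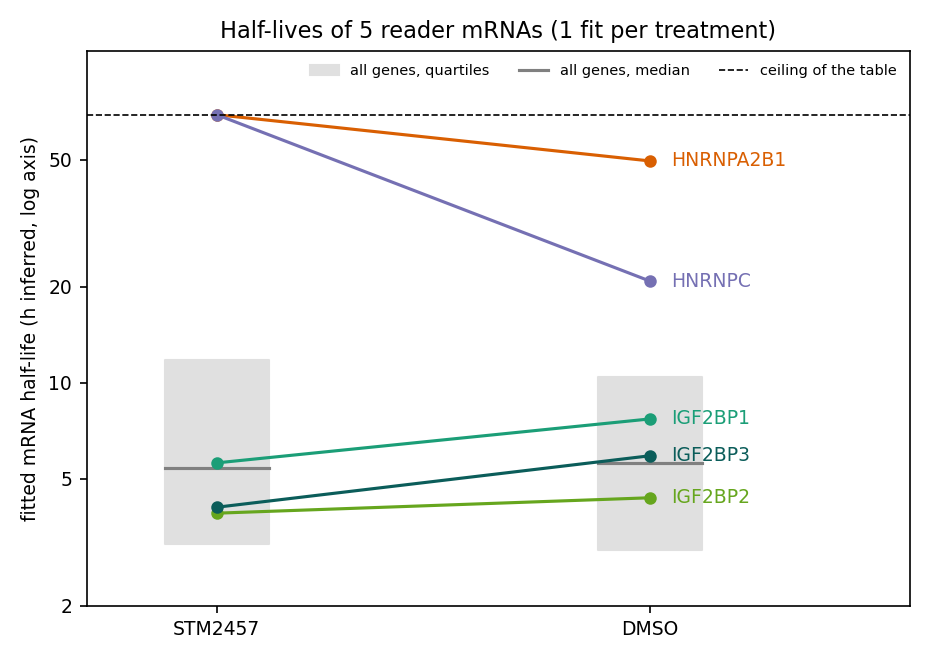
Fitted half-lives of the 5 mRNAs in STM2457 and DMSO, in inferred hours on a log axis, with grey boxes for the quartiles of all 8996 genes, a grey line for their median and a dashed line for the ceiling. The IGF2BP mRNAs lie between 3.90 and 7.70 h, within the grey boxes, and the HNRNP mRNAs between 20.9 and 69.3 h, above them.

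By order of half-life in DMSO the readers ran IGF2BP2, IGF2BP3, IGF2BP1, HNRNPC and HNRNPA2B1. The order of the first 3 was the same in STM2457, where the other 2 were tied at the limit. IGF2BP2 and IGF2BP3 were 0.17 h apart in STM2457 and 1.54 h apart in DMSO. With 1 fitted value each and no error, neighbours in this order cannot be separated by a test.

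Each half-life was then set beside those of genes that were about as stable in DMSO, within 1.2-fold of the same half-life. For IGF2BP1 there were 1371 such genes, with a median log2 ratio of -0.39, and IGF2BP1 at -0.46 stood at percentile 46.4 among them. For IGF2BP2 the median of 1333 genes was -0.02 (percentile 43.4 for IGF2BP2), and for IGF2BP3 the median of 1420 genes was -0.24 (percentile 31.3 for IGF2BP3). All 3 values lay inside the quartiles of these genes, whose lower bounds were -0.79 for IGF2BP1, -0.48 for IGF2BP2 and -0.64 for IGF2BP3. The ratios of the IGF2BP mRNAs were thus of the size seen in genes of like stability. The DMSO half-life is also the denominator of the ratio, so an error in it enters both the matching and the ratio.

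For HNRNPC, 463 genes had a similar half-life in DMSO. Of these, 36.1% were longer-lived and 41.7% shorter-lived, and 124 (26.8%) stood at the limit in STM2457 as HNRNPC did. HNRNPC lay at percentile 85.3 of them, above their upper quartile of 1.52. At the limit a ratio is fixed by the DMSO half-life, so this place cannot rank HNRNPC among the genes that also reached it. For HNRNPA2B1 there were 90 such genes, and 62.2% stood at the limit in STM2457. Their median log2 ratio was 0.31 with an upper quartile of 0.53, and HNRNPA2B1 lay between the 2. That place is likewise set by the limit and the DMSO half-life.

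How much labelled RNA separates these half-lives can be read from the half-lives themselves. At steady state, a half-life fixes the share of an mRNA that is new after a given labelling time; the following shares are arithmetic on the fitted values and not measured conversions. After 180 min, IGF2BP3 mRNA would be 40.0% new in STM2457 and 29.7% new in DMSO, a difference of 10.3 percentage points. IGF2BP1 would be 31.0% new in STM2457 and 23.7% in DMSO, and IGF2BP2 41.3% and 37.9%.

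For HNRNPC the share after 180 min would be 2.96% in STM2457 and 9.49% in DMSO. For HNRNPA2B1 it would be 2.96% in STM2457 and 4.10% in DMSO, a difference of -1.15 percentage points. After 90 min the HNRNPA2B1 shares would be 1.49% in STM2457 and 2.07% in DMSO. The 1.40-fold ratio between the fitted half-lives of HNRNPA2B1 thus corresponds to shares that differ by about 1 molecule in 100, and the table gives no error to set beside it.

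**Figure D3:**
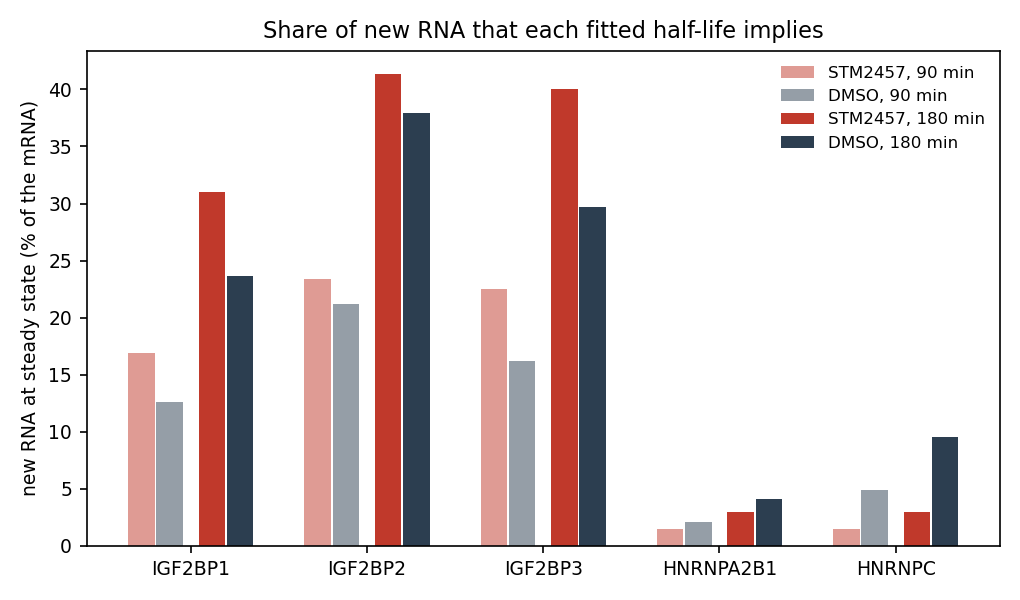
Share of each mRNA, in percent, that would be new after 90 min (pale bars) and 180 min (dark bars) of labelling at steady state, computed from the fitted half-life in STM2457 (red) and DMSO (blue-grey). The IGF2BP mRNAs reach 23.7 to 41.3% at 180 min, and the HNRNP mRNAs 2.96 to 9.49%.

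Synthesis rates come from the same fits, in a unit the table does not name, so they are compared within a gene. The search for nearest genes below is the exception, as it sets the rates of different genes side by side. HNRNPA2B1 had a rate of 516 in STM2457 and 296 in DMSO, a log2 ratio of 0.80 or 1.74-fold higher, at percentile 92.1 of 8993 genes with a ratio. It was the only 1 of the 5 past 1.5-fold upwards, and 0 passed it downwards. Over all genes 12.6% were higher and 13.2% lower. HNRNPC had 237 in STM2457 and 176 in DMSO, a log2 ratio of 0.43.

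Among the IGF2BP mRNAs, IGF2BP3 had a rate of 30.6 in STM2457 and 45.1 in DMSO. Its log2 ratio of -0.56, or 1.47-fold lower, stood at percentile 14.3 and just inside the rule, as its half-life did. IGF2BP1 had 716 in STM2457 and 748 in DMSO (log2 ratio -0.06), and IGF2BP2 had 173 and 170 (0.02). IGF2BP1 and IGF2BP2 thus differed between the treatments by 1.04-fold and 1.02-fold in synthesis, and by 1.37-fold and 1.12-fold in half-life.

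**Figure D4:**
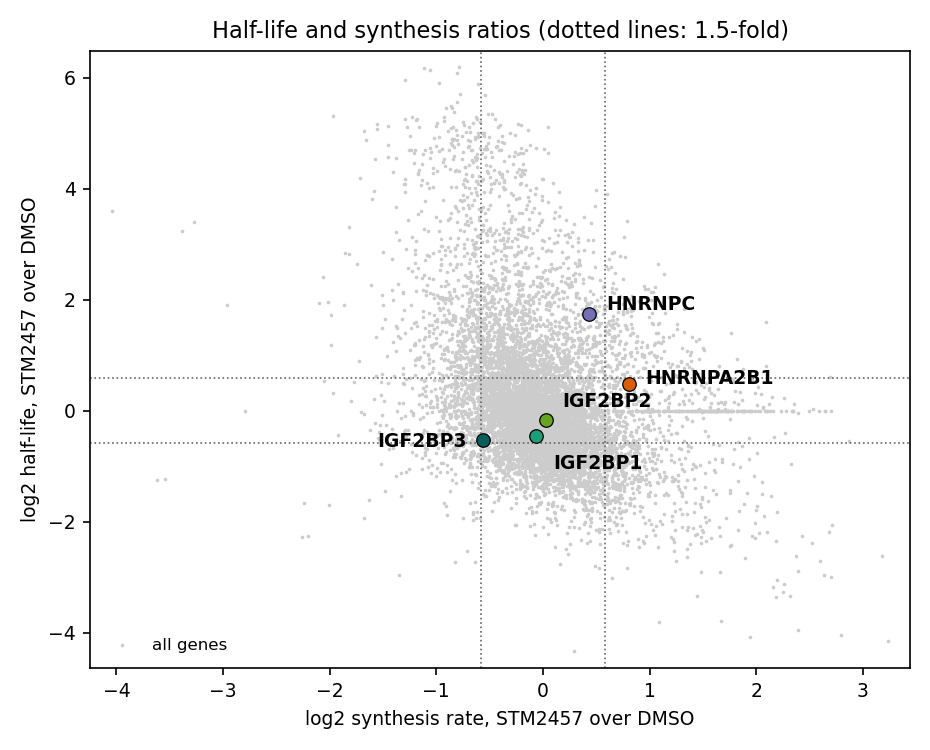
Log2 ratio of half-lives (vertical) against log2 ratio of synthesis rates (horizontal), STM2457 over DMSO, for 8993 genes in grey and the 5 readers in colour, with dotted lines at 1.5-fold. HNRNPC and HNRNPA2B1 lie in the upper right, IGF2BP3 in the lower left, and IGF2BP1 and IGF2BP2 near 0 in synthesis.

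Across all genes the ratios of half-life and synthesis ran against each other (Spearman -0.353 over 8993 genes, which share their fits and are not independent). Both ratios had the same sign in IGF2BP1, IGF2BP3, HNRNPA2B1 and HNRNPC, and opposite signs in IGF2BP2. In IGF2BP3 and HNRNPC this was so also with half-lives held to 24 h and under either centring. The HNRNPA2B1 half-life ratio was 0 with half-lives held to 24 h. The IGF2BP1 synthesis ratio was 0.03 when centred on genes with both half-lives between 0.5 and 24 h. Synthesis times half-life gives, up to a constant, the steady-state level that a fit implies. Where both ratios have the same sign, that product moves further than either factor by arithmetic alone. Implied levels in STM2457 relative to DMSO were 4.49-fold for HNRNPC, 2.44-fold for HNRNPA2B1, 0.91-fold for IGF2BP2, 0.698-fold for IGF2BP1 and 0.468-fold for IGF2BP3. The values of both HNRNP mRNAs rest on the limit: with half-lives held to 24 h, the log2 ratio of implied levels was 0.64 for HNRNPC, against 2.17, and 0.80 for HNRNPA2B1, against 1.28. Synthesis rates were left as fitted, so the value of 0.80 is the HNRNPA2B1 synthesis ratio alone. By the 1.5-fold rule 2 of 5 were higher and 1 was lower, against 28.3% and 24.7% of all genes.

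These are end states, which a long-lived mRNA approaches slowly. If the fitted STM2457 rates had applied from the addition of the compound, the level after 6 h, the latest harvest, would be 1.20-fold the DMSO level for HNRNPC and 1.08-fold for HNRNPA2B1. It would be 0.659-fold for IGF2BP3, 0.842-fold for IGF2BP1 and 0.941-fold for IGF2BP2. After 3 h, when the label was added, IGF2BP3 would stand at 0.787-fold and HNRNPC at 1.10-fold. No measured level per sample is in the table to set beside these.

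The other proteins of m6A metabolism and of the families concerned were taken from 7 lists, some of which share genes; counts cover the genes that the table holds and are read against the shares of 28.5% and 24.9% over all genes. Of 22 other HNRNP proteins in the table, 8 passed the rule as shorter-lived, 3 passed it as longer-lived and 11 did not pass it; the median log2 ratio was -0.36. PCBP1, a poly(C)-binding protein encoded by a single-exon gene, was at the top of those below the limit, with 17.0 h in STM2457 and 4.12 h in DMSO. HNRNPUL2 was at the bottom, with 6.35 h in STM2457 and 22.7 h in DMSO; a read-through gene that joins HNRNPUL2 to BSCL2 is listed apart, so its value is uncertain. Of these 22 mRNAs, 1 stood at the limit in STM2457, as both HNRNP readers did. Over all 8996 genes, 980 did.

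YTH proteins bind m6A through a dedicated domain, and of the 4 that the table holds, 3 passed the rule upwards and 1 downwards (median log2 ratio 3.30, with 2 at the limit in STM2457). Below the limit the ends of this list were YTHDF1, at 6.92 h in STM2457 and 1.95 h in DMSO, and YTHDC2, at 3.14 h and 5.05 h. Among 11 writers and erasers the count was 6 longer-lived to 1 shorter-lived, and the median 0.92. ZC3H13 of the writer complex had 13.3 h in STM2457 and 4.09 h in DMSO, and VIRMA, its scaffold, 3.56 h and 5.81 h. No IGF2BP mRNA had a ratio above 0. HNRNPC, YTHDF2 and YTHDF3 all stood at the limit in STM2457, where a ratio is fixed by the DMSO half-life, so their order is not given.

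Proteins that work with IGF2BP proteins on RNA showed 2 genes past the rule in each direction among 10, and their median was -0.29. DHX9, an RNA helicase, had 18.3 h in STM2457 and 7.77 h in DMSO, and HNRNPU 3.18 h and 5.86 h. The same count, 2 in each direction, was found among 9 other proteins linked to m6A binding (median -0.36). EIF3A, a subunit of initiation factor eIF3, had 12.3 h in STM2457 and 5.65 h in DMSO, and FXR2, a relative of FMR1, 1.74 h and 3.23 h.

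Among 13 mRNAs known as IGF2BP clients, 3 passed the rule in each direction and 7 did not pass it (median 0.22). PABPC1, the cytoplasmic poly(A)-binding protein, had 34.9 h in STM2457 and 15.7 h in DMSO, and FSCN1, an actin bundler, 9.57 h and 18.3 h. ACTB and MYC, the clients named above, had log2 ratios of 0.11 and 0.56 and did not pass the rule. Of 11 targets of the let-7 microRNAs, a class that is known to include IGF2BP mRNAs, 3 passed the rule upwards and 2 downwards (median -0.09), with PLAGL2 at 17.0 h in STM2457 and 2.21 h in DMSO and E2F5 at 1.69 h and 3.72 h.

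**Figure D5:**
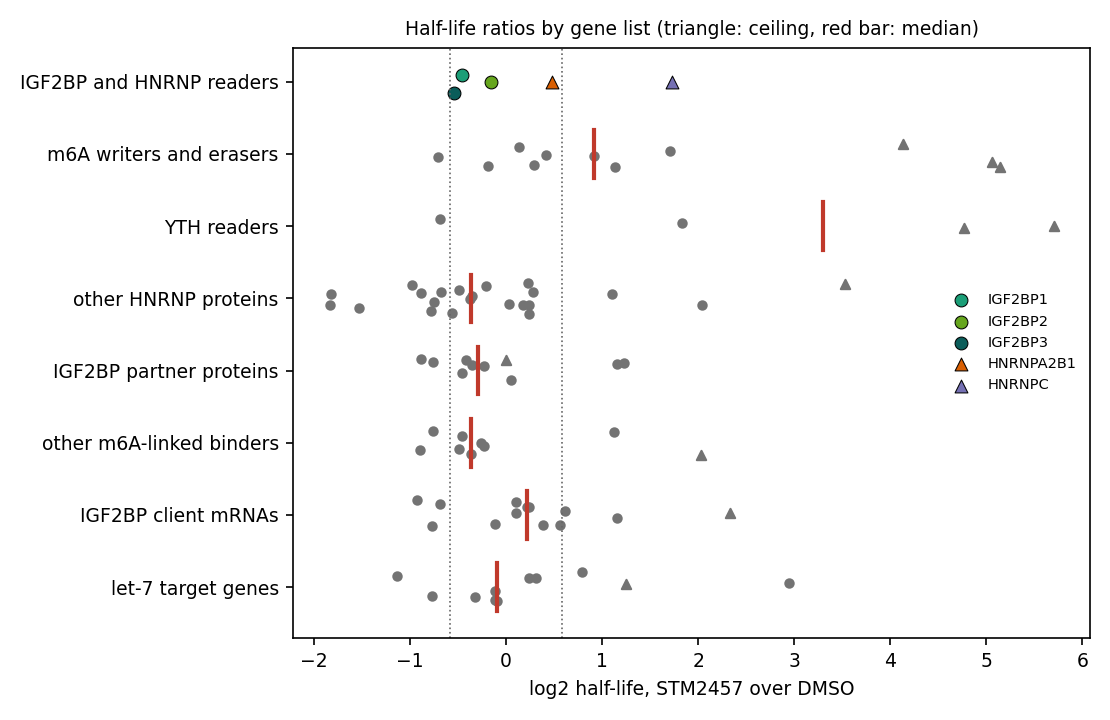
Log2 ratio of half-lives, STM2457 over DMSO, for the 5 readers (top row, coloured) and the genes of 7 lists (grey), with triangles for genes at the ceiling of the table, red bars for list medians and dotted lines at 1.5-fold. The IGF2BP readers lie between -0.54 and -0.16 and the HNRNP readers at 0.48 and 1.73.

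The genes whose kinetics were most like those of each reader were sought over 4 values, the log2 half-life and log2 synthesis rate in each treatment. Nearest to IGF2BP1 were DEK (distance 0.18 on the log2 scale), STARD7 and SMC4. Among those nearest to IGF2BP2 were DDX51 (0.20) and GALNT2 (0.21), and nearest to IGF2BP3 were TTC27 (0.22), CBR4 and LARGE2. HNRNPC was nearest to ALYREF (0.18), DYNC1H1 and MRPS21, and HNRNPA2B1 to PRDX1 (0.22), EEF1A1 and BEX3. All of these neighbours of the HNRNP readers stood at the limit of 69.3 h in STM2457, so that 1 of the 4 values is equal through the limit. No reader was among the 3 nearest genes of another.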

How the data were processed

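SLAM-seq libraries of HEK293T total RNA were made, per the labels' protocols, from 5 µg of iodoacetamide-treated RNA with a Lexogen QuantSeq 3′ forward kit and 15 PCR cycles. FastQC 0.11.9, STAR 2.7.8a and GRCh38.p12 are named in the submitters' processing notes; the fitting tool, the annotation and the filter on genes are not named there. For each gene the authors deposited a half-life and a synthesis rate in either treatment, on other scales than counts, and log2 ratios of STM2457 over DMSO; ratios recomputed from the half-lives differed from the deposited log2 ratios by at most 1.27e-14. Depth is unknown, and 3 genes with a synthesis rate of 0 in STM2457 have no synthesis ratio.

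The samples were grouped by treatment label. Genes past 1.5-fold were counted, and no test was made. Genes of similar half-life lay within 1.2-fold in DMSO, a window set after the values were seen and a wider one had been run. Coding sequences were those of the transcript with the longest coding sequence in GENCODE 29 (GRCh38), for 8611 genes; 8982 of 8996 identifiers matched. Global alignment used Biopython 1.88 (match 2, mismatch -1, gap opening -5, gap extension -1), and 3′ copies were sought with BLAST 2.17.0. Python 3.11.15, NumPy 2.4.6, pandas 2.3.3 and Matplotlib 3.10.9 were used, and counting of calls and motifs was tested on simulated data. Named genes were the 5 members, the highest and lowest gene below the limit in each list, and the 3 nearest genes of each member, of which 1 is not reported here; ACTB, MYC, YTHDF2 and YTHDF3 were added after their values were seen. The members and lists were chosen with earlier results of these data known. As a check of the cells, 2 of 4 genes known to be expressed in HEK293 were in the table (NEFM and NEFL, not PAX2 or LHX1), and of 4 markers of other cell types 1 was (COL1A1).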

Additional observations from a re-analysis of the deposited data

How the results depend on the processing

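With half-lives held to 24 h, the log2 half-life ratio of HNRNPC was 0.20 and members called longer-lived were 0. Its DMSO half-life of 20.9 h leaves no room for a 1.5-fold rise below 24 h, so this recount cannot decide the call. Among members with both values from 0.5 to 24 h, 0 of 3 were longer-lived, a count that leaves out both HNRNP genes. HNRNPA2B1 passed 1.5-fold, at 0.64, when ratios were centred on genes in that range, whose median was -0.16. With the loosest of the 3 size rules tried, 2 members were longer-lived and 2 shorter-lived. The shares of all genes past that looser rule were not counted. These member counts therefore have no background and cannot show whether the members differ from other genes. Other ratios of half-life, synthesis and implied level kept their side of the rule under every centring and limit run. For the implied level of HNRNPA2B1 held to 24 h, this only repeats its synthesis ratio. Motif counts follow the distance asked. At 50 nt they were 10 (IGF2BP1), 10 (IGF2BP2), 13 (IGF2BP3), 5 (HNRNPA2B1) and 9 (HNRNPC); at 200 nt 0 in each IGF2BP gene and 1 in HNRNPC; at any distance 36, 42, 39, 26 and 25. With every exon junction counted, an alternative added after the data were seen, HNRNPC had 0. Of 70 recounts of the lists, 17 moved by over 1.5-fold or to or from 0. No paired analysis was possible because the table holds 1 fitted value per treatment and no sample columns; for the same reason no sample could be left out.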
